A study of Mus musculus with 12 samples.

Results

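The heart muscle sarcomere and regulator genes are 32 named genes for sarcomere proteins, calcium handling proteins, natriuretic peptides, small heat shock proteins and cardiac transcription factors, followed here in whole mouse embryos. A probe set was taken for a gene where the array annotation gives it that single symbol, and where a gene has several, one probe set was chosen by the highest mean value over the 12 arrays. All 32 genes had one, out of 18193 genes on the array, and they carry 68 probe sets, 15 genes having 1 and 17 having several. The genes themselves were proposed with earlier results of these arrays known. The means that chose the probe sets ran from 4.96 for Ryr2 to 12.51 for Actc1 on the log2 scale. They are described and not tested.

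RNA was measured at E10.5, in mid-gestation, on 12 Affymetrix 3′ expression arrays, 1 whole embryo sample per array, in 4 genotypes of 3 arrays each. The wild-type group (wt) carries neither mutation, the p53 group is p53-/-, the acd group carries the acd allele on both copies of Acd (Acd acd/acd), and the double group is Acd acd/acd and p53-/-. The product of Acd is a shelterin component, part of the cap that protects telomeres. The labels call the replicates biological and give no litter, strain or description of either allele, so a p-value measures the spread between these embryos, and the number of arrays limits the precision.

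The heart is the first organ to work in the mouse embryo and beats at this stage. Its muscle cells shorten when myosin of the thick filament pulls on actin of the thin filament, under the control of calcium through troponin and tropomyosin. Ventricular and atrial muscle use different myosin light and heavy chains, and transcription factors of the Nkx, GATA, T-box, Hand and MEF2 families switch these genes on. In whole embryo RNA, fewer heart muscle cells and less RNA per heart muscle cell cannot be told apart.

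In 1 double mutant embryo, replicate 3, 22 of the 32 genes lay below every one of the 9 wt, p53 and acd arrays, against 12.4% of the 13500 genes tested, and ventricular myosin, the natriuretic peptides and phospholamban lay there at between 0.25 and 0.44 of the mean of those 9 arrays. The cardiac transcription factors did not stand with them, 1 of 7 being below all 9 arrays, beside 12.4% of all genes. Double replicates 1 and 2 did not show this order, and in replicate 1 the light chains Myl2, Myl3 and Myl4, the troponins and the natriuretic peptides lay above all 9. Mybpc3, Myh6 and Tbx20 lay below all 9 arrays in each of the 3 double mutant embryos by the probe set used. Another Tbx20 probe set, low on the array, did not show this. With all 12 arrays in the fit, 0 of the 32 genes passed in any of 6 comparisons (limma, Benjamini-Hochberg adjusted p of 0.05 over 13500 genes), and 0 to 8 of them in a comparison had an unadjusted p under 0.05.

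Promoter sequence is shown for 6 of the genes below, because they were low together in replicate 3 (Nppa, Nppb, Pln, Myl3), are an atrial counterpart (Myl7) or were low in all 3 double mutants (Mybpc3), and because each has a single start in the RefSeq table. The sequences are the 250 bases before the transcription start in mouse build GRCm38.p6, 5′ to 3′ on the gene's strand, and capitals mark motif matches. They lie at chr4:148000472-148000721 (Nppa, plus strand), chr4:147985650-147985899 (Nppb, plus), chr10:53337436-53337685 (Pln, plus), chr9:110763428-110763677 (Myl3, plus), chr11:5898783-5899032 (Myl7, minus) and chr2:91117894-91118143 (Mybpc3, plus).
Nppa: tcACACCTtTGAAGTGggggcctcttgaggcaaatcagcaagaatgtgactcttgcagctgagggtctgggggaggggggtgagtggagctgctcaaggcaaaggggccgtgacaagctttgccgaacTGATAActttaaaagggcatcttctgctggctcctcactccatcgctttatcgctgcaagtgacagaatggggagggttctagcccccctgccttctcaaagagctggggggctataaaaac
Nppb: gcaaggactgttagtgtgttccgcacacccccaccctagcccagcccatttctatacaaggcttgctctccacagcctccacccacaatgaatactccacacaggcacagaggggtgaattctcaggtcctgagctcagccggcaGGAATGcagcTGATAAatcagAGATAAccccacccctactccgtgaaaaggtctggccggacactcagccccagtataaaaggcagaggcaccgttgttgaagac
Pln: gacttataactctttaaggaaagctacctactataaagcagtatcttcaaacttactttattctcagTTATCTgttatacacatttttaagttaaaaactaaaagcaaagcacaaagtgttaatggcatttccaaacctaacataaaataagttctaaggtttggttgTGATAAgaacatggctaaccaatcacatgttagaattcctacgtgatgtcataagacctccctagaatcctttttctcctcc
Myl3: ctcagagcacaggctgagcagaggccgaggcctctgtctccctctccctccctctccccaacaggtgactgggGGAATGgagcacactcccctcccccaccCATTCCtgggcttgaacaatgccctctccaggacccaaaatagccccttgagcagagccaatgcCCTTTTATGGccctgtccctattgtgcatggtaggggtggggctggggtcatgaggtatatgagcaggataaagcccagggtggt
Myl7: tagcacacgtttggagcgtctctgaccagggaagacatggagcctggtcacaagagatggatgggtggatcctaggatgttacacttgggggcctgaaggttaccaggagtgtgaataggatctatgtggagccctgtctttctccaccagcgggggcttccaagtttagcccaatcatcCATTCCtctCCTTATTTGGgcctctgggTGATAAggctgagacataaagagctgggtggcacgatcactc
Mybpc3: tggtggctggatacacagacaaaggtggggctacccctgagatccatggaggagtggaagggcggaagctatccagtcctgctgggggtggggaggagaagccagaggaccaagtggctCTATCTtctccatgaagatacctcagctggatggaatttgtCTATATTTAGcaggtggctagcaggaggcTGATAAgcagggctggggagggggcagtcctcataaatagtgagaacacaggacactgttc

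The motifs searched, on both strands, were a GATA site (AGATAA with its variant AGATAG, and TGATAA with its variant TGATAG), an Nkx2-5 site (TNAAGTG), a T-box site (AGGTGT), an M-CAT site (CATTCC), and the MEF2 and CArG boxes, whose letters are degenerate. The table held 34 starts of 27 of the 32 genes. A GATA match stood in 11 of the 34 windows (32.4%), against 26.5% of all 32851 windows, and an M-CAT match in 10 (29.4%), against 12.6%. T-box matches stood in 6 windows (17.6%, against 11.8%) and Nkx2-5 matches in 3 (8.82%, against 10.1%). MEF2 and CArG matches stood in 3 windows each (8.82%), against 2.92% and 1.47% of all windows. Of the promoters shown, Nppa held 1 GATA, 1 Nkx2-5 and 1 T-box match, Nppb and Pln 2 GATA matches each, and Mybpc3 2 GATA matches and 1 MEF2 match. Myl3 held 2 M-CAT matches and 1 CArG match, and Myl7 held 1 GATA, 1 M-CAT and 1 CArG match. A match is a description of the letters and not of binding.

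The arrays themselves differed in ways that touch these results. The median correlation of an array with the rest was 0.972 in double replicate 1, 0.987 in double replicate 2 and 0.995 or more in the remaining 10 arrays, which include double replicate 3. The first pair is therefore said to stand apart. Acd itself read 8.99 to 9.0 in wt and 8.84 to 9.05 in p53, against 8.22 to 8.31 in acd and 8.24 to 8.44 in double. At this gene the arrays homozygous for acd did not overlap the others. By Y-linked transcripts, male embryos made up 1 of 3 wt, all 3 p53, all 3 acd and 1 of 3 double arrays (replicate 1), so sex and genotype are partly mixed.

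**Figure D1:**
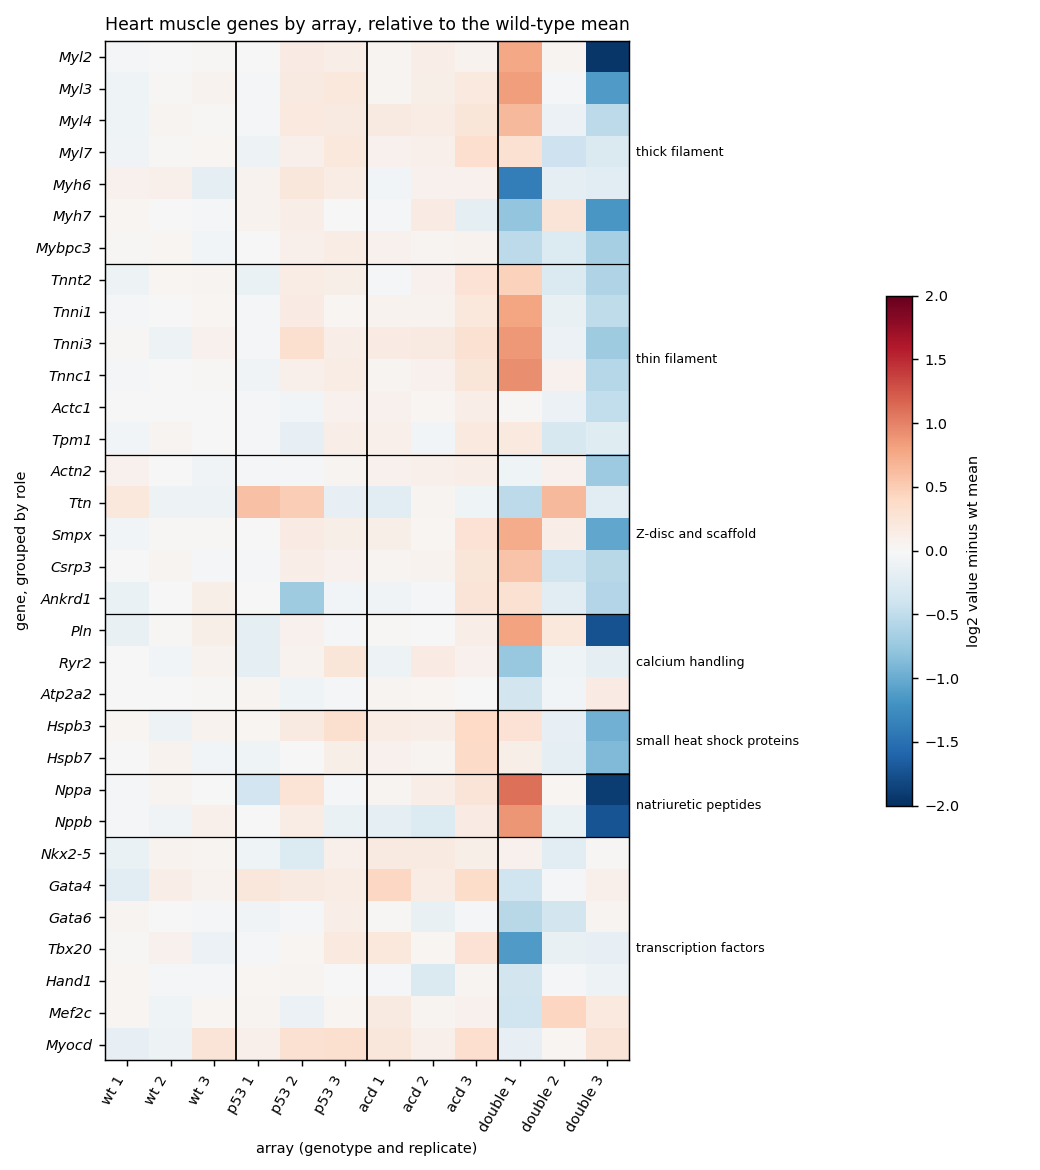
Log2 value of each of the 32 genes in each of the 12 arrays minus the mean of the 3 wt arrays, with genes in rows by role and arrays in columns by genotype. Red is above and blue below the wt mean, on a scale from -2.0 to 2.0. The column of double replicate 3 is blue from Myl2 to Nppb apart from Atp2a2, and that of double replicate 1 is red for most light chains, troponins and peptides and blue for Myh6 and Tbx20.

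The thick filament genes included the 1 farthest below the 9 arrays in replicate 3. Myl2 measured 11.16, 11.18 and 11.21 in wt, 11.18, 11.35 and 11.31 in p53, 11.24, 11.31 and 11.25 in acd, and 11.96, 11.25 and 9.24 in double replicates 1, 2 and 3. Myl2, the regulatory light chain of ventricular myosin, was lowest in double replicate 3 and highest in double replicate 1, with the other 10 arrays within 0.19 of each other. In replicate 3 it was 4.01-fold below the mean of the 9 other arrays. Myl3 measured 9.92, 10.03 and 10.08 in wt, 9.97, 10.19 and 10.23 in p53, 10.07, 10.14 and 10.21 in acd, and 10.85, 9.98 and 8.88 in double replicates 1, 2 and 3. Myl3, the ventricular essential light chain, followed the same order, and replicate 3 was 2.32-fold below the mean of the 9. Its other probe sets gave differences of -0.83 and -1.14 there on the log2 scale, beside -1.21. Myh7 measured 9.64, 9.61 and 9.57 in wt, 9.68, 9.74 and 9.60 in p53, 9.58, 9.77 and 9.43 in acd, and 8.82, 9.87 and 8.44 in double replicates 1, 2 and 3. Myh7, the beta heavy chain used by the embryonic ventricle, was low in replicates 1 and 3, by 1.75-fold and 2.28-fold, and above all 9 other arrays in replicate 2.

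The atrial counterparts differed less in replicate 3. Myl7 measured 11.53, 11.63 and 11.65 in wt, 11.51, 11.71 and 11.82 in p53, 11.70, 11.71 and 11.94 in acd, and 11.91, 11.19 and 11.31 in double replicates 1, 2 and 3. Myl7, the atrial regulatory light chain, was low in replicates 2 and 3, by 1.41-fold and 1.30-fold, and within the range of the 9 arrays in replicate 1. Myl4 measured 10.30, 10.43 and 10.41 in wt, 10.35, 10.57 and 10.55 in p53, 10.56, 10.52 and 10.62 in acd, and 11.02, 10.26 and 9.85 in double replicates 1, 2 and 3. Myl4, the atrial essential light chain, was 1.54-fold below the mean of the 9 in replicate 3 and above all 9 in replicate 1. Myh6 measured 9.53, 9.55 and 9.27 in wt, 9.52, 9.67 and 9.61 in p53, 9.40, 9.54 and 9.55 in acd, and 8.07, 9.26 and 9.24 in double replicates 1, 2 and 3. Myh6, the alpha heavy chain, was lowest in replicate 1, where it was 2.72-fold below the mean of the 9, and lay below all 9 in replicates 2 and 3 too, by 1.19-fold and 1.21-fold. A second Myh6 probe set averaged 2.98, did not pass the filter on low values and gave 0.28, -0.06 and 0.04 in the 3 double arrays. Averaged over Myl2, Myl3 and Myh7, the ventricular isoforms lay at 0.27, 0.10 and -1.41 from the wt mean in the 3 double mutants, with the 9 others between -0.03 and 0.16. The atrial isoforms Myl4, Myl7 and Myh6 lay at -0.15, -0.24 and -0.34, with the 9 others between -0.03 and 0.22. The difference between these sets of isoforms in replicate 3 is that of 1 embryo and has no test. Whole embryo RNA does not measure the chambers apart, so the sets do not read ventricle and atrium.

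Mybpc3 measured 8.04, 8.07 and 7.97 in wt, 8.04, 8.13 and 8.17 in p53, 8.12, 8.08 and 8.09 in acd, and 7.50, 7.75 and 7.36 in double replicates 1, 2 and 3. Mybpc3, the cardiac myosin binding protein that sits on the thick filament, had all 3 double mutant arrays below all 9 others, as Myh6 did, but without 1 array far from the rest. They were 1.5-fold, 1.25-fold and 1.65-fold below the mean of the 9. Over the whole thick filament group, 7 of 7 genes were below all 9 arrays in replicate 3.

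**Figure D2:**
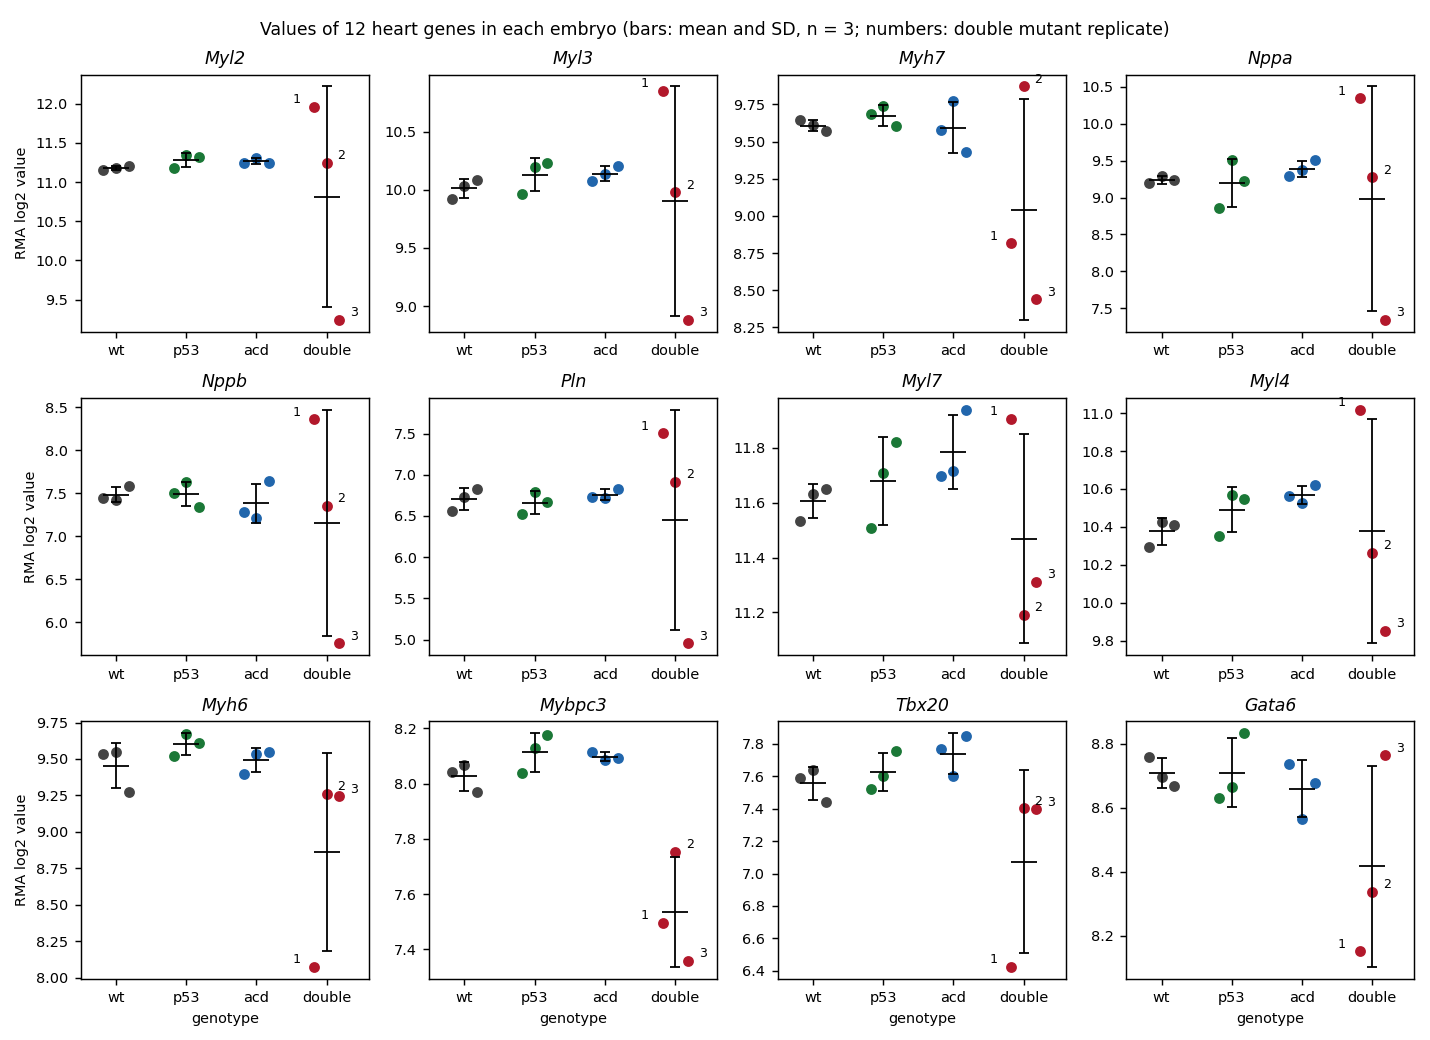
RMA log2 values of 12 of the genes in each embryo by genotype, with the mean and SD of 3 arrays as bars and the double mutant points numbered by replicate. The 3 double mutant embryos are far apart for Myl2, Myl3, Nppa, Nppb and Pln, with replicate 3 lowest, while for Mybpc3 all 3 lie below every other array.

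The troponin genes of the thin filament had a common order in the double mutants. Tnnc1, the calcium binding troponin, read 10.15 to 10.45 in the 9 wt, p53 and acd arrays and 11.14, 10.30 and 9.64 in the 3 double mutants. Tnni1 read 9.96 to 10.21 in the 9 wt, p53 and acd arrays and 10.79, 9.84 and 9.48 in the 3 double mutants. Tnni1 is the slow skeletal troponin I that the embryonic heart uses. Tnni3 read 7.71 to 8.13 in the 9 wt, p53 and acd arrays and 8.68, 7.70 and 7.11 in the 3 double mutants. Tnni3 is the cardiac troponin I that replaces it later. Tnnc1, Tnni1 and Tnni3 were above all 9 arrays in replicate 1 and below all 9 in replicate 3. Tnnt2, the cardiac troponin T that anchors the complex, gave the same order, with 10.60, 9.85 and 9.53 against 10.00 to 10.42. Actc1 read 12.49 to 12.67 in the 9 wt, p53 and acd arrays and 12.56, 12.42 and 12.05 in the 3 double mutants. Actc1, cardiac actin, was below all 9 arrays in replicates 2 and 3, by 1.10-fold and 1.43-fold. Tpm1, a tropomyosin, read 11.96, 11.45 and 11.52 in the double arrays and 11.60 to 11.96 in the 9 others. In replicate 3 all 6 of these genes were below the 9 arrays by the probe set used. For Tpm1 that difference was -0.26, while its other probe sets that passed the filter gave -0.06 and 0.04.

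At the Z-disc and along titin, 3 of 5 genes were below all 9 arrays in replicate 3. Smpx read 8.38 to 8.71 in the 9 wt, p53 and acd arrays and 9.17, 8.57 and 7.39 in the 3 double mutants. Smpx is a small muscle protein at the cell's attachment to the sarcomere, and replicate 3 was 2.17-fold below the mean of the 9. Actn2 read 7.22 to 7.43 in the 9 wt, p53 and acd arrays and 7.20, 7.37 and 6.56 in the 3 double mutants. Actn2, the alpha-actinin that crosslinks actin at the Z-disc, was 1.70-fold lower in replicate 3 and within the range of the 9 in replicate 2. Csrp3 read 8.98 to 9.26 in the 9 wt, p53 and acd arrays and 9.59, 8.62 and 8.47 in the 3 double mutants. Csrp3, the muscle LIM protein, was low in replicates 2 and 3. Ttn read 8.18 to 8.99 in the 9 wt, p53 and acd arrays and 7.89, 9.06 and 8.19 in the 3 double mutants. Ttn, the giant spring of the sarcomere, and Ankrd1, a stretch-responsive protein that binds it, lay within the 9 arrays in replicate 3, Ankrd1 reading 7.62 there against 7.49 in p53 replicate 2. Both other Ttn probe sets that passed the filter gave the same signs as the one used, negative in replicates 1 and 3 and positive in replicate 2.

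Among the calcium handling genes Pln stood out. Pln measured 6.56, 6.72 and 6.82 in wt, 6.52, 6.79 and 6.67 in p53, 6.73, 6.71 and 6.83 in acd, and 7.50, 6.91 and 4.95 in double replicates 1, 2 and 3. Pln is phospholamban, the inhibitor of the calcium pump, and its replicate 3 value was 3.37-fold below the mean of the 9 arrays and lower than the array medians of 5.32 to 5.40, and it is not shown to be above background there. Atp2a2 read 11.70 to 11.83 in the 9 wt, p53 and acd arrays and 11.40, 11.73 and 11.94 in the 3 double mutants. Atp2a2, the pump itself, which other tissues also use, was above all 9 arrays in replicate 3, 0.15 over their mean on the log2 scale, and below all 9 in replicate 1. Of its other probe sets that passed the filter, 2 gave positive and 2 negative differences in replicate 3. Ryr2, the calcium release channel, read 4.27, 4.94 and 4.85 in the double arrays and 4.84 to 5.27 in the 9 others, all below the array medians and so not shown to be above background.

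The natriuretic peptides are hormones that working and stretched heart muscle secretes, and Nppa had the widest range of the 32 genes between the double mutants. Nppa measured 9.20, 9.29 and 9.23 in wt, 8.86, 9.51 and 9.22 in p53, 9.29, 9.37 and 9.50 in acd, and 10.34, 9.28 and 7.34 in double replicates 1, 2 and 3. Nppb measured 7.45, 7.42 and 7.58 in wt, 7.50, 7.63 and 7.34 in p53, 7.28, 7.21 and 7.64 in acd, and 8.36, 7.35 and 5.75 in double replicates 1, 2 and 3. In replicate 1 Nppa and Nppb were 2.10-fold and 1.88-fold above the mean of the 9 arrays, and in replicate 3 they were 3.82-fold and 3.24-fold below it, with replicate 2 inside the range of the 9 for both. The SD of Nppa over the 3 double arrays was 1.52. The small heat shock proteins of muscle were both below all 9 arrays in replicate 3. Hspb3 read 5.56 to 6.07 in the 9 wt, p53 and acd arrays and 5.95, 5.50 and 4.70 in the 3 double mutants. Hspb7 read 6.96 to 7.42 in the 9 wt, p53 and acd arrays and 7.17, 6.87 and 6.16 in the 3 double mutants. They were 2.15-fold and 1.93-fold below the mean of the 9, the Hspb3 value being below the array medians.

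The 7 transcription factors did not follow the sarcomere genes in replicate 3, where 1 was below all 9 arrays, 1 above and 5 within. Tbx20 measured 7.59, 7.64 and 7.44 in wt, 7.52, 7.60 and 7.75 in p53, 7.77, 7.60 and 7.85 in acd, and 6.42, 7.40 and 7.40 in double replicates 1, 2 and 3. Tbx20, a T-box factor of heart muscle and valves, was the 1 below all 9, by 1.18-fold in replicates 2 and 3 and by 2.32-fold in replicate 1. Of its other probe sets that passed the filter, 1 gave -1.05, -0.26 and -0.17 in the 3 double arrays. The other, low on the array, gave -0.05, 0.14 and -0.08. Mef2c read 8.23 to 8.54 in the 9 wt, p53 and acd arrays and 7.95, 8.78 and 8.55 in the 3 double mutants. Mef2c, a factor of all muscle and of endothelium, was above all 9 arrays in replicates 2 and 3 by the probe set used. Another Mef2c probe set gave -0.01 in both, and the rest gave positive differences there. Gata6 read 8.56 to 8.83 in the 9 wt, p53 and acd arrays and 8.15, 8.34 and 8.76 in the 3 double mutants. Gata6 was below all 9 in replicates 1 and 2 and within them in replicate 3. Gata4 read 5.00 to 5.63 in the 9 wt, p53 and acd arrays and 4.81, 5.17 and 5.31 in the 3 double mutants. Gata4, its relative, was low in replicate 1, and its values lie near or below the array medians. Nkx2-5 read 5.80 to 6.26 in the 9 wt, p53 and acd arrays and 6.16, 5.85 and 6.10 in the 3 double mutants. Nkx2-5, the early homeobox factor of the heart, was within the 9 arrays in all 3 double mutants. Hand1, a factor of the left ventricle, read 6.02, 6.36 and 6.27 in the double arrays against 6.10 to 6.44, and Myocd, the coactivator of serum response factor, 5.94, 6.14 and 6.36 against 5.94 to 6.43.

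Over all 32 genes, double replicate 1 had 12 below and 13 above all 9 arrays, where 33.6% and 36.4% of all genes lay. Replicate 2 had 14 below and 4 above, with 25.8% and 22.7% of all genes. Replicate 3 had 22 below and 2 above (Atp2a2 and Mef2c), with 12.4% and 8.77% of all genes. The median difference from the mean of the 9 was 0.11, -0.14 and -0.60 for the 32 genes in these embryos, and 0.02, -0.01 and -0.01 for all genes. Ranked from the lowest of 13500 genes in replicate 3, the 3 first places were held by the Y-linked genes Eif2s3y, Kdm5d and Uty, and places 4 to 7 by Myl2, Nppa, Pln and Nppb. In all, 17 of the 32 genes were among the lowest 100. Of 24 other probe sets of these genes that passed the filter, 19 had the sign of the one used in replicate 3. The 3 genes below all 9 arrays in every double mutant embryo were Mybpc3, Myh6 and Tbx20, where 1.44% of all genes lay.

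**Figure D3:**
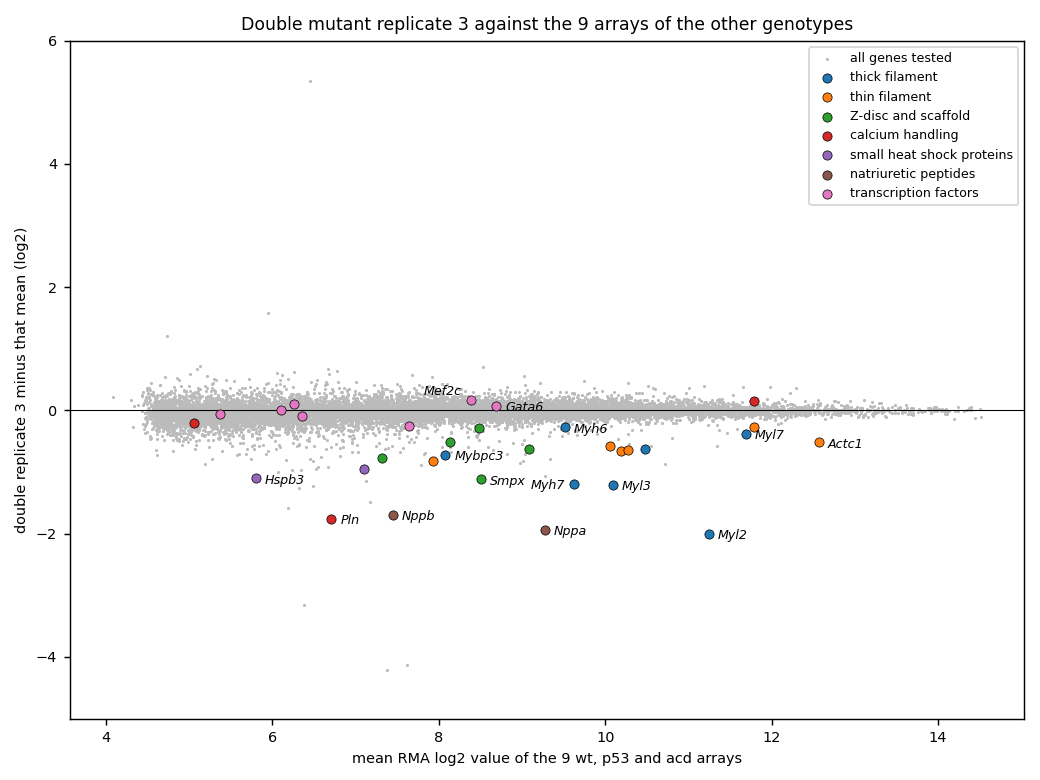
Difference of double replicate 3 from the mean of the 9 wt, p53 and acd arrays (log2, vertical axis) against that mean (horizontal axis) for 13500 genes in grey and the 32 heart genes coloured by role. Myl2, Nppa, Pln and Nppb lie between -2.0 and -1.70, below nearly all grey points, and the 7 transcription factors lie between -0.24 and 0.16.

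Heart muscle genes outside the 32 were read from a second list of 35 names, of which 31 were tested. The counts of this and the following lists in replicate 3 stand beside 12.4% of all genes below all 9 arrays and 8.77% above. In replicate 3, 22 of 31 were below all 9 arrays and 0 above, with a median of -0.32, among them Mylk3, the kinase of the ventricular regulatory light chain (-0.67), Cryab, a small heat shock protein (-0.64), Fabp3, a fatty acid carrier (-0.61), and Myom1, a protein of the M-line (-0.59). Of 19 other heart regulators 5 were below and 2 above, with a median of -0.02. Skeletal muscle markers had 3 of 14 below and 2 above (median -0.01), smooth muscle markers 4 of 6 below (-0.21), endocardium and endothelium markers 1 of 8 below and 2 above (0.01) and epicardium markers 1 of 6 below and 2 above (0.01). The summed level of the skeletal markers on the log2 scale ran from 11.41 to 11.48 in wt and from 11.36 to 11.67 in double, and that of the 32 heart genes from 14.85 to 14.89 and from 14.42 to 15.15. Liver and visceral endoderm markers had 0 of 7 below (0.22), macrophage markers 2 of 10 below and 1 above (-0.23) and interferon response genes 3 of 6 above (0.28). Genes of hypoxia and glycolysis had 4 of 9 above and 0 below (0.13), and primitive erythroid markers 0 of 5 on either side (-0.14).

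Other lists moved with the double mutant replicates that stood apart. The interferon list lay 4.50 and 3.97 above the wt mean in double replicates 1 and 2 and 0.51 above it in replicate 3, with the 9 others between -0.06 and 0.45. The macrophage list lay at 1.42, 0.93 and -0.21. Of its 10 genes 10, 9 and 1 were above all 9 arrays, where 36.4%, 22.7% and 8.77% of all genes were. The liver list lay at 1.78, 1.59 and 0.36, with 1.23 in p53 replicate 2. Neuron markers were above all 9 arrays for 9 of 10 genes in replicate 2, where 22.7% of all genes were. In replicate 1 they were for 3 of 10, where 36.4% of all genes were, and the list mean of 0.11 lay within the range of the 9 others. In replicate 3 they were for 0. The part of these differences in the heart gene values of replicates 1 and 2 was not tested. In replicate 3, where the sarcomere genes were low, the macrophage, liver and neuron lists lay within the range of the 9 other arrays. The 3′ minus 5′ difference of the Gapdh control probes was 0.01, 0.16 and 0.08 in double replicates 1, 2 and 3 and 0.04 to 0.20 in the 9 other arrays, and that of Actb 0.48, 0.39 and 0.39 against 0.37 to 0.51.

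**Figure D4:**
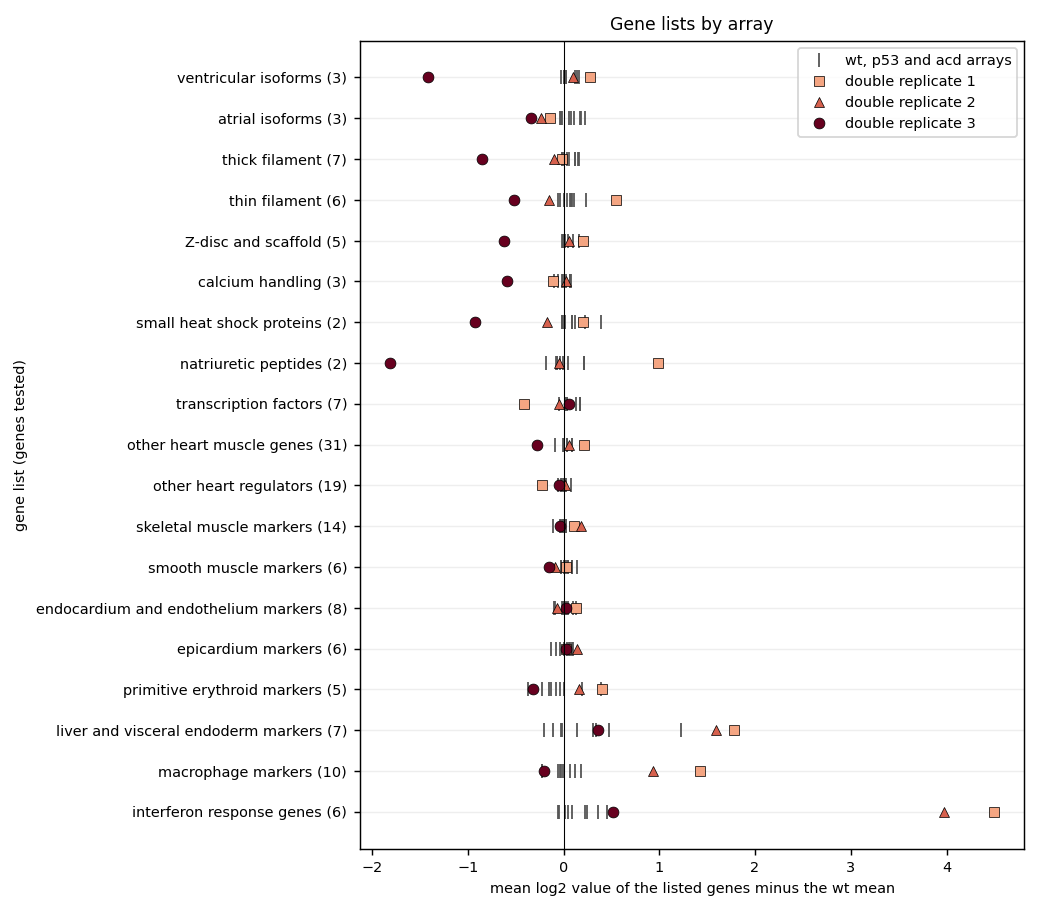
Mean log2 value of each gene list minus its wt mean (horizontal axis), with ticks for the 9 wt, p53 and acd arrays and symbols for the 3 double mutant arrays. Number of genes is given with each list. Double replicate 3 is lowest for the natriuretic peptides (-1.81) and ventricular isoforms (-1.41), and replicates 1 and 2 are far to the right for interferon, liver and macrophage lists.

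The comparison of acd with wt asks what the acd mutation does where p53 is intact. Of the 32 genes 27 were higher and 5 lower, by a median of 0.11 on the log2 scale, where 47.2% of all genes were higher and the median was -0.01. For 16 genes all 3 acd arrays were above all 3 wt arrays, among them Myl2, Myl4, Myl7, Mybpc3, Tnnc1, Actc1 and Nppa, where 7.24% of all genes lay, and for 0 they were all below (9.85% of all genes). The differences were small, from -0.10 to 0.31, and 0 of the 32 passed (limma, Benjamini-Hochberg adjusted over 13500 genes), where 2 genes or 0.0148% did. The fit takes a single variance per gene over all genotypes, so the SE and p here include the spread of the double mutants. Myl2 had an SE of 0.48 in this comparison, with an SD of 0.03 in wt, 0.04 in acd and 1.41 in double. At an unadjusted p under 0.05 there was 1 higher (0.637% of all genes) and 0 lower. This was Gata4 at 0.31 ± 0.13 (SE, n = 3 and 3, limma adjusted p = 1.0), low on the array. With the sex of the embryo as a term of the fit the median was -0.03 in place of 0.11. All acd and p53 embryos were male, so that term was set by the wt and double arrays only. It carries the spread between the double mutants into this comparison, and the fit cannot separate that spread from sex.

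The comparison of p53 with wt had 24 of the 32 genes higher and 8 lower, where 48.1% of all genes were higher, with a median of 0.06 against -0.0035 over all genes. For 1 gene, Gata4, the p53 arrays were all above wt, where 3.42% of all genes lay. In this comparison 0 genes passed, 0.0% of all, and 0 of the 32 had an unadjusted p under 0.05 (0.333% of all genes higher and 0.385% lower), the smallest being that of Myocd (0.24 ± 0.13, SE, limma adjusted p = 1.0). The median was -0.12 with sex as a term and 0.12 without p53 replicate 1. As for acd against wt, the SE of this comparison and the sex term both draw on the double arrays.

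Double against p53 asks what the acd mutation does without p53. Of the 32 genes 28 were lower and 4 higher, with a median of -0.21, or -0.02 without double replicate 3, -0.37 without double replicate 1 and -0.06 with sex as a term, where 52.0% of all genes were lower and the median was -0.01. With all 12 arrays 0 of the 32 passed, and 1 gene or 0.00741% of all did. Without double replicate 2, 2 of the 32 passed, Mybpc3 and Myh7, out of 3 genes in all (0.0222%). At an unadjusted p under 0.05, 7 were lower, where 5.67% of all genes were. Mybpc3 had the smallest p, at -0.58 ± 0.09 (SE, n = 3 and 3, limma adjusted p = 0.272). Over the alternatives that keep more than 1 double embryo its limma adjusted p ran from 0.00724 to 0.856, lowest without double replicate 3. Myh6 measured -0.74 ± 0.25, Myh7 -0.63 ± 0.27 and Tbx20 -0.55 ± 0.21, with limma adjusted p of 0.463 for each. Ryr2 measured -0.38 ± 0.16, Gata4 -0.30 ± 0.13 and Gata6 -0.29 ± 0.13, with the same adjusted p. Without double replicate 1 Myh6 measured -0.35, and with replicate 3 alone Gata6 measured 0.05. Double arrays were all below the p53 arrays for 5 genes, Myh6, Mybpc3, Gata4, Tbx20 and Hand1, where 5.01% of all genes lay.

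Double against acd, which asks what loss of p53 does where Acd is mutant, had 30 of 32 genes lower (52.8% of all genes), with a median of -0.25, or -0.11 without double replicate 3, -0.44 without double replicate 1 and -0.15 with sex as a term. Again 0 of the 32 passed, with 0.0% of all genes, and 8 were lower at an unadjusted p under 0.05 (6.27% of all). Mybpc3 measured -0.56 ± 0.09 and Tbx20 -0.66 ± 0.21 (SE, n = 3 and 3, limma adjusted p = 0.371 for both). Over the alternatives that keep more than 1 double embryo these limma adjusted p ran from 0.00701 to 0.805 and from 0.0295 to 0.805. Both were lowest without double replicate 3. Gata4 measured -0.42 ± 0.13, Myh6 -0.63 ± 0.25 and Ryr2 -0.39 ± 0.16, with limma adjusted p of 0.371, 0.376 and 0.385. Hspb7 measured -0.48 ± 0.20, Actn2 -0.36 ± 0.16 and Actc1 -0.28 ± 0.11, with limma adjusted p of 0.382, 0.394 and 0.377. The double arrays lay all below the acd arrays for 7 genes (6.9% of all), which were Myh6, Mybpc3, Actc1, Actn2, Nkx2-5, Gata4 and Tbx20. Among the 31 other heart muscle genes 0 passed, and 9 were lower and 1 higher at an unadjusted p under 0.05, with Nebl, a nebulin relative at the Z-disc (-0.40), Ldb3, a Z-disc adaptor (-0.52), and Myom1 (-0.42) having the smallest p.

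Double against wt had 26 of 32 genes lower (53.2% of all genes), with a median of -0.15, or 0.00 without double replicate 3 and -0.33 without double replicate 1, and 0 passed, where 0.0148% of all genes did. At an unadjusted p under 0.05, 4 were lower (6.41% of all), with Mybpc3 at -0.49 ± 0.09 (SE, n = 3 and 3, limma adjusted p = 0.447). Over the alternatives that keep more than 1 double embryo its limma adjusted p ran from 0.0172 to 0.774, lowest without double replicate 3. Myh6 measured -0.59 ± 0.25, Tbx20 -0.48 ± 0.21 and Gata6 -0.29 ± 0.13, with limma adjusted p of 0.448 for each, and with replicate 3 alone Gata6 measured 0.06. The interaction, which sets the Acd difference without p53 against that with it, was below 0 for 31 of 32 genes, with a median of -0.31, or -0.12 without double replicate 3, -0.49 without double replicate 1 and -0.07 with sex as a term, where 51.0% of all genes were below 0. It passed for 0 of the 32 genes and 0.0% of all, and 5 were below 0 at an unadjusted p under 0.05 (1.47% of all). These 5 were Mybpc3 (-0.65 ± 0.13), Myh6 (-0.78 ± 0.35), Tbx20 (-0.73 ± 0.30), Gata4 (-0.61 ± 0.19) and Myocd (-0.42 ± 0.19), with a limma adjusted p of 0.879 for each. These comparisons share arrays, so their values are not independent of each other.

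The double mutant embryos were spread more widely than those of the other genotypes. The SD over 3 arrays had a median over the 32 genes of 0.55 in double, against 0.07 in wt, 0.12 in p53 and 0.10 in acd, and over all genes of 0.21, 0.06, 0.10 and 0.07. The range over the 3 double arrays was wider than that over the 9 others for 28 of 32 genes, where it was for 65.2% of all genes, and the median ranges were 1.04 and 0.36.

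Leaving out double replicates 1 and 2, which stood apart, leaves replicate 3 as the 1 double mutant embryo, which the fit takes to vary as the other genotypes do, and the values then describe that embryo. Against p53, 16 of the 32 genes passed, all lower, out of 27 lower genes in all (0.2% of 13500). Myl2 measured -2.04 ± 0.08 (SE, n = 1 and 3, limma adjusted p = 4.92e-06), Pln -1.71 ± 0.12 (limma adjusted p = 0.000663), Nppb -1.74 ± 0.16 (0.00194) and Nppa -1.86 ± 0.19 (0.00379). Myl3 at -1.25, Myh7 at -1.24, Hspb3 at -1.15, Smpx at -1.13, Mybpc3 at -0.75 and Actc1 at -0.49 passed as well, and 0 of the 7 transcription factors did. Against acd 17 of the 32 passed out of 30 lower genes (0.222% of all), against wt 12 of 24 (0.178%), and 14 of 25 had an interaction below 0 (0.185%). Of the 31 other heart muscle genes 1 passed in each, Mylk3.

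Leaving out double replicate 3 instead gave 1756 genes that passed against p53 (13.0% of all), and 4 of the 32 were among them, Mybpc3 (-0.49), Myh6 (-0.93) and Gata6 (-0.47) lower and Pln (0.54) higher. Against acd 4 of the 32 passed among 1876 genes (13.9%), which were Mybpc3, Gata4, Gata6 and Tbx20, against wt 2 among 1646 (12.2%), Mybpc3 and Gata6, and for the interaction 1 among 439 (3.25%), Mybpc3 (-0.56, limma adjusted p = 0.0317). Without replicate 3, Mybpc3 was the 1 member that passed in all 4 of these comparisons. The share of all genes that did so was not counted, and the comparisons share arrays.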

How the data were processed

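Each of the 12 arrays gives a log2 expression value per probe set, which the authors made from the scanned arrays with justRMA and deposited as a single table. Their gene selection used BRB-ArrayTools 4.4.0, per the labels and design text of the series. Genotype and replicate come from the sample titles. Of 45101 probe sets, 34958 carry 1 gene symbol in the platform annotation, 932 several and 9211 none. Control probe sets were left out, the probe set with the highest mean was kept for each of 18193 genes, and the 13500 genes above the 40th percentile of their array in at least 3 arrays were tested, all 32 heart genes among them. RMA gives no detection call, so a value near or below the array medians (5.32 to 5.40) is not shown to be above background.

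A mean per genotype was fitted over all 12 arrays with limma 3.58.1 in R 4.3.3, with empirical Bayes tests, two-sided, and Benjamini-Hochberg adjustment over all genes tested, at an adjusted p of 0.05. The fit was tested on simulated data with the same SD per gene in all genotypes. The double mutants were spread more widely than the other genotypes, so the simulation does not cover their case. Every heart gene is named. A difference with its error is given where the unadjusted p is under 0.05, or for the smallest p. Other lists are described by counts and medians, and the 3 genes of smallest p are named for the other heart muscle genes in double against acd. The gene examples of replicate 3, the promoters shown and the rankings were chosen after values were seen. Members, lists, comparisons and the split of the double mutants were chosen with earlier results of these data known, so their p-values are not independent evidence. Alternatives were other filters, normalizations, probe sets, variance models, array weights, sex or replicate as a term, and leaving out arrays. The p53 transcript itself is not reported here.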

Additional observations from a re-analysis of the deposited data

Results flagged for a closer look

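For Mybpc3, all 3 acd arrays were above all 3 wt arrays, while all 3 double arrays were below all 3 p53 arrays. The interaction was -0.65 ± 0.13 (SE) on the log2 scale, and the test of it did not pass (limma adjusted p = 0.879). Over the alternatives that keep more than 1 double embryo the limma adjusted p ran from 0.0317 to 0.983. Without double replicate 3, where that p was lowest, the interaction was -0.56.

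For Gata4 the acd arrays were all above wt and the double arrays all below p53, and likewise the p53 arrays were all above wt and the double arrays all below acd. Both patterns share 1 interaction, which was -0.61 ± 0.19 (SE), and its test did not pass either (limma adjusted p = 0.879, or 0.0522 to 0.986 over 22 alternatives). The Gata4 values lie near the array medians.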

How the results depend on the processing

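Medians over the 32 genes kept their sign in 24 alternatives (23 for the interaction), except with sex as a term, which gave -0.031 for acd against wt and -0.12 for p53 against wt, and without double replicate 3, which gave 0.00 for double against wt. With sex as a term the interaction kept its sign, at -0.071. That term was set by the wt and double arrays only, since all acd and p53 embryos were male. Leaving out each array in turn gave 0.028 to 0.12 for p53 against wt. The number of the 32 that passed for double against p53 was 0 with all arrays, 1 with median centring, 1 with array weights (0.904% of all genes passed), 0 to 4 leaving out each array in turn and 16 with a median of -0.60 without double replicates 1 and 2. For double against acd it was 5 with array weights (13.2% of all genes), 0 to 4 and 17 (median -0.66). For double against wt it was 5 with array weights (13.4% of all genes), 0 to 2 and 12 (median -0.54). For the interaction it was 0 to 1 and 14 (median -0.72). The highest count on leaving out 1 array came each time without double replicate 3, where 13.0%, 13.9%, 12.2% and 3.25% of all genes passed. Array weights gave double replicates 1, 2 and 3 weights of 0.068, 1.61 and 0.246, so the double mean in that fit is mostly replicate 2.

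Single genes with a difference in the text gave 613 alternative values for 26 results, of which 581 kept direction and side of the threshold, 24 newly passed and 8 reversed. The 24 include fits with replicate 3 as the only double embryo, which are not a test of the genotype. With the second highest probe set Myh6 reversed in double against p53 (0.13), against acd (0.043), against wt (0.085) and in the interaction (0.092), and Gata4 (0.027) and Ryr2 (0.0056) in double against p53. These second probe sets of Myh6, Gata4 and Ryr2 did not pass the filter on low values, so their signs are not informative. Gata6 reversed without double replicates 1 and 2, at 0.054 against p53 and 0.057 against wt. Deviations of same-numbered arrays of different genotypes had correlations from -0.23 to 0.39, with 7 of 18 pairs over 0.1. Other pairs ran from -0.39 to 0.28. These ranges overlap and do not settle whether the numbers pair the samples. With the replicate block 0 of the 32 passed, and the medians stayed at 0.11, 0.06, -0.21, -0.25, -0.15 and -0.31. With 3 embryos per genotype and RMA values that give no detection call, differences of low genes such as Ryr2, Gata4 and Hspb3 are least certain.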

Other observations

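Of the 20 genes lowest in double replicate 3 against the mean of the 9 wt, p53 and acd arrays, 8 were heart genes of the 32, 3 were Y-linked and 9 were others. These 9 were picked by rank after their values were seen, and no list of them was fixed or tested. They were 3110039M20Rik at -1.59, Wnt8b, a Wnt signal, at -1.49, Fezf2, a zinc finger factor of the forebrain, at -1.25, Tac2, a tachykinin precursor, at -1.22, Aldh1a3, an enzyme that makes retinoic acid, at -1.16, Gm6958 at -1.14, Crym at -1.06, Ly86 at -1.0 and Dmrt3 at -0.97. With replicate 3 as the 1 double mutant embryo, 3110039M20Rik measured -1.70, Wnt8b -1.52, Fezf2 -1.37 and Dmrt3 -0.95 against p53. The genes were picked on that same array, so these differences are not separate evidence. Differences against p53 of the other 5 are not given here.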
